A study of Mus musculus with 6 samples.

Results

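The immediate early and heat shock genes described here are Fos, Fosb, Jun, Junb, Egr1, Atf3, Ier2 and Dusp1, together with the heat shock genes Hspa1a and Hspa1b. The 10 genes were chosen by name, as rows of the gene count tables whose symbol equals the member, out of 34591 gene rows. All 10 were found, and all 10 passed the filter on low counts. RNA-seq gene counts came from 6 libraries of mouse brain tumours that model WNT medulloblastoma, a hindbrain tumour in which WNT signalling is active. In 3 libraries the labels give sh2-Ift88 (shIft88 here), a knockdown by hairpin RNA of Ift88, whose protein belongs to the intraflagellar transport particle needed for primary cilia. The other 3 come from the control model, and the source of both groups is given as mouse brain with a medulloblastoma model. The sources used here do not give strain, sex, age, driver alleles, how tumours were collected or the number of animals, so p-values measure the spread between these libraries, which may in part be technical.

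Immediate early genes are transcribed within minutes of a stimulus, without new protein synthesis. Growth factor signals through ERK act on serum response factor and its partners, calcium and cyclic AMP signals act through CREB, and stress kinases act on Jun and Atf3. Fos and Jun family proteins pair as the transcription factor AP-1. The stress-inducible chaperones Hspa1a and Hspa1b are induced by heat shock factors when unfolded protein accumulates. In brain tissue both sets of genes are also known to be induced by handling, ischaemia or dissociation.

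None of the 10 members passed the test between the groups, and the groups overlapped for all but Junb. The library labelled shIft88 1 and the library control 2 stood highest for most members, 1 in each group. At an adjusted p of 0.05, 0 of 10 members were called by edgeR's quasi-likelihood test, where 0 of 16768 genes tested (0%) were called in all. At an unadjusted p of 0.05 edgeR gave 1 of 10 members, Hspa1b, against 541 of all genes tested (3.23%). DESeq2 called 0 members and 58 of the 15731 genes to which it gave an adjusted p (0.369%), and it gave no p for Fosb. Its unadjusted p was under 0.05 for 3 members and for 729 genes in all. By limma-voom 0 genes were called. The groups did not overlap for 1 of 10 members, Junb, which was lower in libraries labelled shIft88, where 3.69% of all genes tested were lower without overlap and 8.39% did not overlap in either direction. Over the members the median log2 fold change of shIft88 over control was -0.62, against -0.012 over all genes tested, with 4 members above 0 and 6 below. Levels are given as CPM, gene counts scaled to library size with edgeR's TMM factors.

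**Figure D1:**
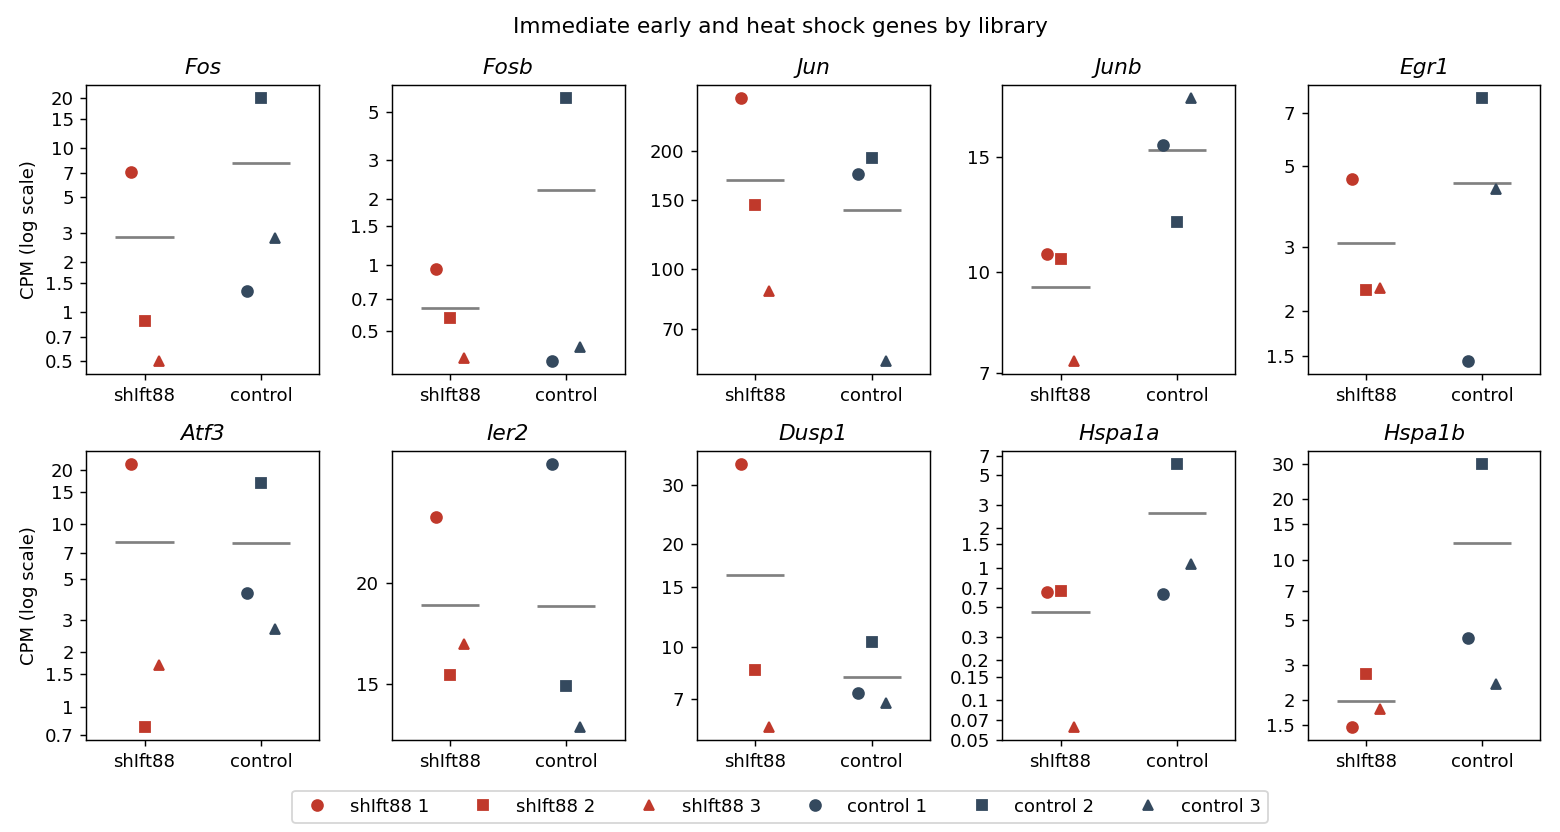
Level of each of the 10 genes in CPM (log axis) in the 3 libraries labelled shIft88 (left, red) and the 3 controls (right, blue); symbols mark the library number and grey bars the group mean. Fos ran from 0.500 to 20.1 CPM and Atf3 from 0.773 to 21.4 CPM, with shIft88 1 and control 2 on top in both, while Hspa1b stood at 29.9 CPM in control 2 and at no more than 4.06 CPM elsewhere.

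The targeted gene Ift88 checks the labels, and its level did not differ between the groups beyond the spread between libraries. Ift88 stood at 14.7, 16.0 and 14.4 CPM in libraries labelled shIft88 1, 2 and 3 and at 13.8, 19.7 and 13.7 CPM in control 1, 2 and 3, for a log2 fold change of -0.064 (standard error 0.27, edgeR adjusted p = 0.9995). Every direction here is therefore that of the libraries labelled shIft88. For the tumour label, 8 WNT pathway genes that include Axin2, Lef1 and Wif1 were summed. Their level was 3103 to 4192 CPM in libraries labelled shIft88 and 2363 to 4522 CPM in controls. Wif1 alone stood at 1346 to 3054 CPM. None of the 8 was at 0, but Dkk1 had 2 reads each in shIft88 2 and shIft88 3 and 1 read in control 1. With no library of other tissue to set beside them, these levels cannot test the label. Gene counts summed to between 26802618 and 33772559 per library. Library shIft88 3 stood apart: 10.2% of its reads did not align, against 2.93% to 3.96% in the others, and its 10 top genes took 50.9% of gene counts, against 13.9% to 19.8%. Its scaling factor (TMM) was 0.598, which sets its levels above those that library totals alone would give. Reads on olfactory receptor genes, which brain tumours should not express, were found on 564 and 387 of 1249 such genes in shIft88 2 and 3 and on 492 in control 2, and on 24 to 38 in the remaining libraries.

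Among the AP-1 subunits, Fos and Atf3 varied most. Fos, the partner that makes AP-1 a strong activator, stood at 7.16, 0.874 and 0.500 CPM in libraries labelled shIft88 1, 2 and 3 and at 1.33, 20.1 and 2.82 CPM in control 1, 2 and 3. The groups overlapped, since shIft88 1 lay above control 1 and control 3. These levels rest on 253, 26 and 8 reads in the libraries labelled shIft88 and on 44, 618 and 114 reads in the controls. The 95% Poisson interval of the lowest, shIft88 3, ran from 0.216 to 0.985 CPM, below that of control 2 (18.5 to 21.7 CPM), where such intervals cover counting error only. Between the groups Fos had a log2 fold change of -1.49 (standard error 1.30, edgeR adjusted p = 0.9995), and its 95% confidence interval ran from -4.55 to 1.56. Without control 2 it was 0.46, and without shIft88 1 it was -3.55.

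Atf3, a stress-induced member of the ATF family that pairs with Jun, stood at 21.4, 0.773 and 1.69 CPM in libraries labelled shIft88 1, 2 and 3 and at 4.18, 16.9 and 2.67 CPM in control 1, 2 and 3. As for Fos, shIft88 1 and control 2 lay above the other 4 libraries, here with shIft88 1 on top. Within the libraries labelled shIft88 the highest was 27.8 times the lowest. The group means were 7.97 ± 11.7 CPM with shIft88 and 7.93 ± 7.84 CPM in controls (SD, n = 3 each). The log2 fold change of 0.013 (standard error 1.25) took the other sign with library totals alone, at -0.12, and with limma-voom, at -0.70. The windows upstream of both genes are shown because Fos and Atf3 were high in the same 2 libraries. They are the 250 bases before the transcription start in RefSeq on GRCm38.p6, chr12:85473640-85473889 on the plus strand and chr1:191183334-191183583 on the minus strand, written 5′ to 3′ in the gene's direction with capitals at each TGACG or its reverse complement, the core of the cyclic AMP response element.
Fos: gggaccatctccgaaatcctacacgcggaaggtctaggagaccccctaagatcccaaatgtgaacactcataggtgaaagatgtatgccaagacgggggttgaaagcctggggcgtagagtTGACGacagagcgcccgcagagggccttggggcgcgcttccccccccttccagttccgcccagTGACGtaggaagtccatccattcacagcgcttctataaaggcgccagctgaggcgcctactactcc
Atf3: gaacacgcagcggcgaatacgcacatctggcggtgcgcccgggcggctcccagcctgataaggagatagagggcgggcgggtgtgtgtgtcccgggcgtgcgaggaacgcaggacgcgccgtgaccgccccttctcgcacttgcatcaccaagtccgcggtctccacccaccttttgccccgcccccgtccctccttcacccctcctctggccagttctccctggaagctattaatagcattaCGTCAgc
On either strand TGACG was in 5 of the 8 member windows that RefSeq gave, those of Fos, Fosb, Junb, Atf3 and Dusp1, and in 17.8% of all 32851 promoter windows of that length. The CArG box bound by serum response factor was in 0 of the 8 and in 1.47% of all. Sites further upstream than 250 bases were not searched, and Egr1 and Ier2 had no window. The 0 thus does not show that these genes lack such a site. The Fos window holds TGACG at 129 and 66 bases before the start, and the Atf3 window at 7 bases. A match is a description of letters and was not tested against the counts.

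Fosb, a Fos relative whose truncated form accumulates in stimulated neurons, was high in 1 library only. It stood at 0.962, 0.571 and 0.375 CPM in libraries labelled shIft88 1, 2 and 3 and at 0.363, 5.79 and 0.420 CPM in control 1, 2 and 3, which are 34, 17 and 6 reads and 12, 178 and 17 reads. Control 2 was 6.02 times the next library, shIft88 1. Control 1 and control 3 lay below shIft88 1 and shIft88 2, so the groups overlapped. For Fosb the log2 fold change was -1.76 (standard error 1.15, edgeR adjusted p = 0.9995), and it was 0.70 without control 2.

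Jun, the main partner of Fos, was the most abundant member in each library. Its level was 274, 146 and 88.0 CPM in libraries labelled shIft88 1, 2 and 3 and 175, 193 and 58.1 CPM in control 1, 2 and 3. The range was 4.71 times from control 3 to shIft88 1, and the groups overlapped over most of it. Jun had a log2 fold change of 0.25 (standard error 0.56), and the sign turned without shIft88 1 (-0.29) and without control 3 (-0.12).

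Junb, which pairs with Fos proteins but is a weaker activator than Jun, was the member whose groups did not overlap. It stood at 10.7, 10.5 and 7.31 CPM in libraries labelled shIft88 1, 2 and 3 and at 15.7, 11.9 and 18.5 CPM in control 1, 2 and 3. Every library labelled shIft88 lay below every control, with the nearest pair at 10.7 CPM in shIft88 1 and 11.9 CPM in control 2. The means were 9.49 ± 1.89 CPM with shIft88 and 15.4 ± 3.28 CPM in controls (SD, n = 3 each). The log2 fold change of -0.69 (standard error 0.32, 95% confidence interval -1.44 to 0.053) did not pass over all genes tested (unadjusted p = 0.0644 and adjusted p = 0.9995 by edgeR's quasi-likelihood test). It stayed between -0.85 and -0.54 when each library was left out in turn. For Junb, control 2 was the lowest of the 3 controls, while for Fos and Atf3 it was the highest of them.

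Egr1, a zinc-finger transcription factor induced through serum response factor, stood at 4.61, 2.28 and 2.31 CPM in libraries labelled shIft88 1, 2 and 3 and at 1.45, 7.71 and 4.33 CPM in control 1, 2 and 3. Control 2 was again highest, but control 1 was the lowest library of all, and the groups overlapped. Egr1 had a log2 fold change of -0.55 (standard error 0.67). It was 0.084 without control 2. Ier2, a nuclear immediate early protein, had the narrowest range of the 10: it stood at 24.1, 15.4 and 16.8 CPM in libraries labelled shIft88 1, 2 and 3 and at 28.1, 14.9 and 13.3 CPM in control 1, 2 and 3. Its highest library was 2.12 times its lowest, and the means were 18.78 ± 4.69 CPM with shIft88 and 18.77 ± 8.13 CPM in controls (SD, n = 3 each). The log2 fold change of 0.0013 turned to -0.27 with library totals alone.

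Dusp1, the phosphatase that switches off p38, JNK and ERK kinases, was high in the library labelled shIft88 1 alone. It stood at 34.5, 8.53 and 5.81 CPM in libraries labelled shIft88 1, 2 and 3 and at 7.33, 10.3 and 6.82 CPM in control 1, 2 and 3. Library shIft88 1 was 3.34 times the next, control 2, and the controls lay within 1.51 times of each other. Between the groups its log2 fold change was 0.999 (standard error 0.67, edgeR adjusted p = 0.9995), and without shIft88 1 it was -0.20. The window upstream of Dusp1 (chr17:26508473-26508722, minus strand, GRCm38.p6, RefSeq) is shown because it is the only member window with the full palindrome TGACGTCA, found in 1.55% of all windows. Capitals mark that palindrome, which holds TGACG on each strand, and a further TGACG upstream of it, which start 143 and 191 bases before the transcription start.
Dusp1: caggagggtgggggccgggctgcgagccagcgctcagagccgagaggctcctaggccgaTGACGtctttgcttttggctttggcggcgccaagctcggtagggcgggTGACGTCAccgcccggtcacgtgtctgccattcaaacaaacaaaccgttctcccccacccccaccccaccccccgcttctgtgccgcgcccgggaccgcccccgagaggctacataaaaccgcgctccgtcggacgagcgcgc

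The heat shock pair was high in control 2 and low in the other 5 libraries. Hspa1b stood at 1.47, 2.69 and 1.81 CPM in libraries labelled shIft88 1, 2 and 3 and at 4.06, 29.9 and 2.40 CPM in control 1, 2 and 3. Control 2 was 7.36 times the next library, control 1, and control 3 lay below shIft88 2, so the groups overlapped. With library totals alone they did not, by a narrow margin, at 2.93 CPM in shIft88 2 and 2.97 CPM in control 3. The levels rest on 52, 80 and 29 reads in libraries labelled shIft88 1, 2 and 3 and on 134, 919 and 97 reads in control 1, 2 and 3. The means were 1.99 ± 0.628 CPM with shIft88 and 12.1 ± 15.4 CPM in controls (SD, n = 3 each). For Hspa1b the log2 fold change was -2.60 (standard error 0.98, unadjusted p = 0.0319 and adjusted p = 0.9995 by edgeR's quasi-likelihood test, adjusted p = 0.305 by DESeq2). Without control 2 it was -0.70 (unadjusted p = 0.287 in the same edgeR fit across genes).

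Hspa1a stood at 0.651, 0.672 and 0.0625 CPM in libraries labelled shIft88 1, 2 and 3 and at 0.636, 6.08 and 1.06 CPM in control 1, 2 and 3. Here too control 2 stood alone, while control 1 lay below shIft88 1 and shIft88 2. The value of shIft88 3 is 1 read, whose 95% Poisson interval ran from 0.00158 to 0.348 CPM. That read set shIft88 3 at 0.0103 of control 2, with a counting interval from 0.000259 to 0.0579. Per kilobase of exon it was 0.0211 CPM, against a mean of 0.0141 CPM per kilobase over the olfactory receptor genes in the same library. Its log2 fold change was -2.43 (standard error 1.11, unadjusted p = 0.0629 and adjusted p = 0.9995 by edgeR's quasi-likelihood test), and it was -0.84 without control 2.

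The 2 rows cannot be fully separated, because the genes are near-identical copies that encode almost the same chaperone. Of the 50-base stretches of the Hspa1a transcript in GENCODE, 58.8% occur unchanged in the Hspa1b transcript. The deposited tally of reads with more than 1 alignment is 0 in each library, and how such reads were assigned is not given in the sources used here. Hspa1a took 30.7%, 20.0% and 3.33% of the reads of the pair in libraries labelled shIft88 1, 2 and 3 and 13.5%, 16.9% and 30.7% in control 1, 2 and 3. Summed, the pair stood at 2.12, 3.36 and 1.87 CPM in libraries labelled shIft88 1, 2 and 3 and at 4.69, 36.0 and 3.46 CPM in control 1, 2 and 3, with a log2 fold change of -2.58 (edgeR adjusted p = 0.9996). For the summed pair control 2 was again far above the rest. Every library labelled shIft88 lay below every control, but by a narrow margin. The nearest were 3.36 CPM on 100 reads in shIft88 2 and 3.46 CPM on 140 reads in control 3. Of all genes tested, 3.69% were lower with shIft88 without overlap. The upstream windows of the pair are shown because they are also nearly the same, and capitals mark GAANNTTC, the inverted repeat that heat shock factors bind. They are chr17:34959239-34959488 and chr17:34972157-34972406, both on the minus strand of GRCm38.p6, from RefSeq.
Hspa1b: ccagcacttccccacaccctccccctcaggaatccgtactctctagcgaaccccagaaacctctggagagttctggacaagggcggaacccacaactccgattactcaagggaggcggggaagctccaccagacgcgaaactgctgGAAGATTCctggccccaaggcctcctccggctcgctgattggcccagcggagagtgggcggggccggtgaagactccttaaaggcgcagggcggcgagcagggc
Hspa1a: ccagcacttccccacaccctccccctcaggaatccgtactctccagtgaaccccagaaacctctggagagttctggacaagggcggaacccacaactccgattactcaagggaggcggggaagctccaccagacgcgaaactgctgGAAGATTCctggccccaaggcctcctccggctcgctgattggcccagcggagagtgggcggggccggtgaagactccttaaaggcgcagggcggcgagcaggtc
Over these 250 bases the windows were 98.8% identical and differed by T44C, C47T and G249T, with the Hspa1b base first and positions counted from the 5′ end of the window. The repeat was in 3 of the 8 member windows, those of Hspa1a, Hspa1b and Jun, and in 6.69% of all windows. As the windows of Hspa1a and Hspa1b are nearly the same, their matches are not independent. The repeat in its other arrangement, TTCNNGAA, was in 0 of the 8 and in 7.17% of all windows.

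**Figure D2:**
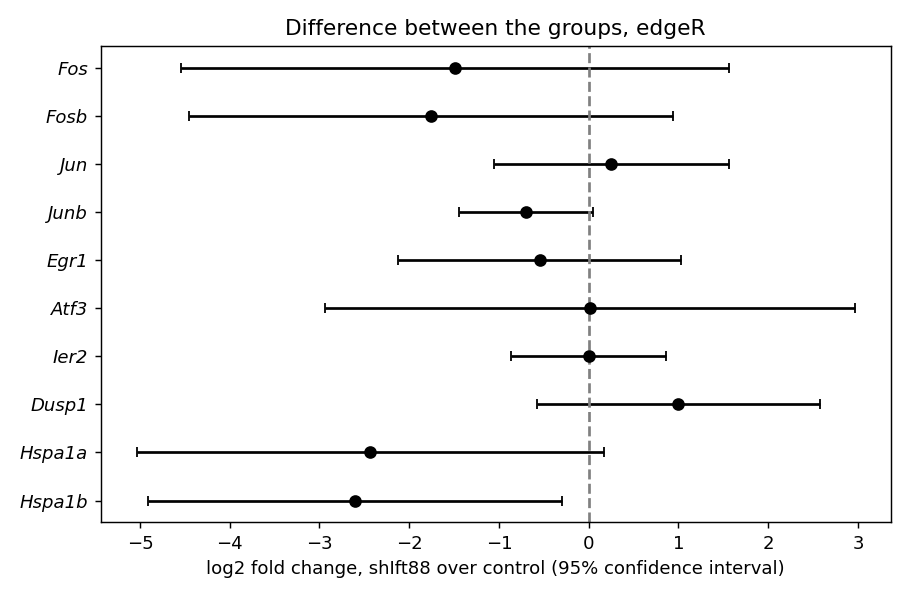
Log2 fold change of libraries labelled shIft88 over controls for each of the 10 genes (points) with its 95% confidence interval (bars) from edgeR; the dashed line marks no difference. The interval of Hspa1b, from -4.90 to -0.30, is the only one of the 10 that leaves out 0, and it is not adjusted for the number of genes tested.

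Between libraries the members fell into unequal ranges. The highest library was over 5 times the lowest for 7 of 10 members, as it was for 23.9% of all genes tested. It was 40.2 times for Fos, 27.8 times for Atf3, 20.3 times for Hspa1b and 15.9 times for Fosb. Dusp1, Egr1 and Jun ranged over 5.93, 5.30 and 4.71 times, Junb over 2.53 times. With library totals alone these ranges were wider by over 1.5 times for 6 members: 74.3 times for Fos, 28.5 for Fosb, 5.23 for Junb, 10.4 for Dusp1, 179.8 for Hspa1a and 30.5 for Hspa1b. The range of Hspa1a, 97.4 times on the TMM scale, rests on the 1 read in shIft88 3, with a counting interval from 17.3 to 3866. Library control 2 was highest for 5 of 10 members (Fos, Fosb, Egr1, Hspa1a and Hspa1b), and over all genes tested it was highest for 11.2%. Library shIft88 1 was highest for Jun, Atf3 and Dusp1, and over all genes it was highest for 17.9%. By contrast, shIft88 2 and shIft88 3 were highest for 0 members, and shIft88 3 was lowest for 4. The spread within groups that edgeR estimates per gene, the biological coefficient of variation, was 1.03 for Fos, 1.01 for Atf3 and 0.921 for Fosb, and 0.371 for Junb and 0.383 for Ier2, against a median of 0.427 over all genes tested. It lay in the top 10% of all genes for 5 of 10 members: Fos, Fosb, Atf3, Hspa1a and Hspa1b.

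**Figure D3:**
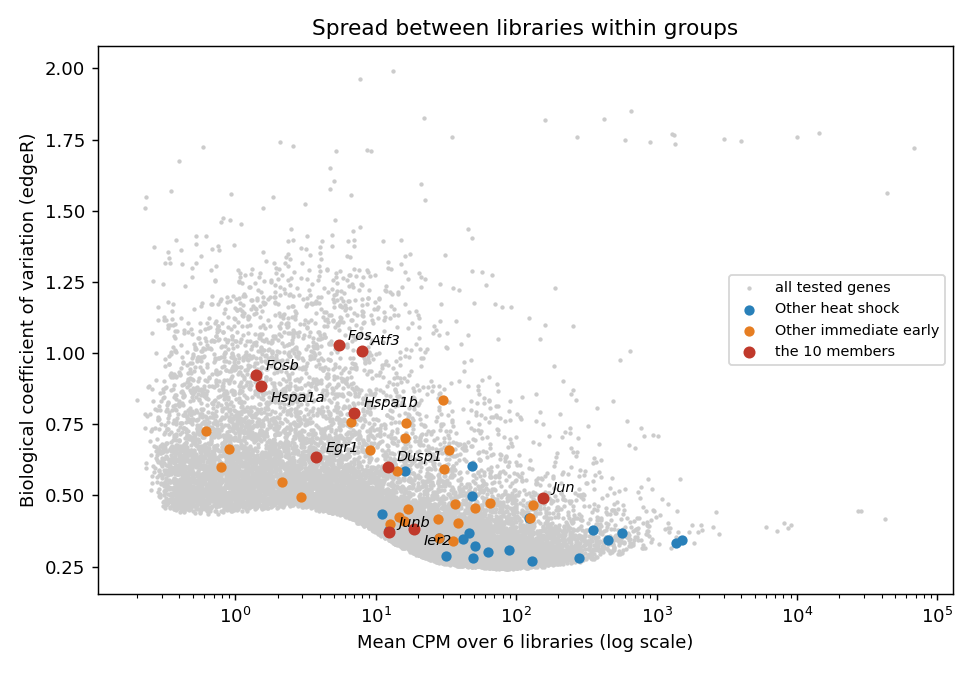
Biological coefficient of variation within groups against mean CPM (log axis) for all 16768 genes tested (grey), the 10 members (red, named), 26 other immediate early genes (orange) and 21 other heat shock genes (blue). Fos, at 1.03, and Atf3, at 1.01, lie in the top 10% of all genes tested, and Junb and Ier2, at 0.371 and 0.383, lie below the median of 0.427.

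Per kilobase of exon, which makes genes comparable, the mean level over 6 libraries ran in the order Jun, Ier2, Junb, Atf3, Dusp1, Hspa1b, Fos, Egr1, Hspa1a and Fosb. Jun averaged 48.8 ± 24.3 CPM per kilobase (SD over 6 libraries), Ier2 12.3 ± 3.90 and Junb 5.40 ± 1.74, and each lay above the next in 6 of 6 libraries down to Junb. Fos averaged 2.32 ± 3.22 and Fosb 0.226 ± 0.345 CPM per kilobase. From Junb to Fosb no neighbour in this order lay above the next in all 6 libraries. Atf3 and Dusp1, with means of 3.69 CPM per kilobase each, were so close that Atf3 was the higher in 1 of 6.

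The groups were also set against each other within libraries split by reads on olfactory receptor genes, although shIft88 3 stood apart from the others on its side of the split in unaligned reads and in the share of its top genes. Where such reads were many (shIft88 2 and 3 against control 2), the median log2 fold change of the members was -2.67, and where they were few (shIft88 1 against control 1 and 3) it was 0.92. For Fos these values were -4.85 and 1.74, for Atf3 -3.81 and 2.62, and for Dusp1 -0.53 and 2.25. On each side 1 group is a single library, control 2 and shIft88 1, whose spread is assumed to be like that of the others. Those are the libraries that stood highest for most members, so the opposite signs restate that order and are no separate check of the pooled median of -0.62. By edgeR 0 members were called on either side. The pooled median was 0.27 without control 2 and -1.59 without shIft88 1.

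Other immediate early genes came from a list of 30 that holds none of the members, and none passed the test between the groups. With 0 of 16768 genes called in all, this does not show that their levels were the same. Of 26 that passed the filter, 0 were called in either direction by edgeR, 2 reached an unadjusted p of 0.05 (3.23% of all genes tested did), 14 were above 0 and 12 below, and the median log2 fold change was 0.030. The groups did not overlap for 2 of 26, both lower with shIft88, where 3.69% of all genes tested were lower without overlap and 8.39% did not overlap in either direction. Klf10, a TGF-beta-induced repressor, stood at 26.4, 27.1 and 18.7 CPM in libraries labelled shIft88 and at 43.6, 30.6 and 67.4 CPM in controls. Gadd45g, a stress gene that activates p38 and JNK signalling, stood at 13.0, 7.59 and 7.12 CPM in libraries labelled shIft88 and at 29.95, 13.5 and 16.1 CPM in controls. Both had every library labelled shIft88 below every control, with log2 fold changes of -0.97 (standard error 0.34) and -1.10 (standard error 0.42). The 2 most abundant of the rest were Plk2, a polo-like kinase, and Klf6, with log2 fold changes of 0.097 and 0.45; that of Plk2 was -0.052 with library totals alone and -0.066 with limma-voom. Egr3, Egr4, Fosl1 and Npas4 did not pass the filter, with at most 0.437 CPM in any library.

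The members' unevenness between libraries was seen in some of these genes, named here after their values were seen. Cyr61, a secreted matrix protein induced by serum, stood at 74.9, 8.27 and 5.93 CPM in libraries labelled shIft88 1, 2 and 3 and at 12.6, 61.1 and 17.9 CPM in control 1, 2 and 3, so shIft88 1 and control 2 were again on top. Nr4a1, an orphan nuclear receptor, stood at 19.6, 3.36 and 2.94 CPM in libraries labelled shIft88 and at 1.76, 7.15 and 5.51 CPM in controls. Maff, a small Maf factor, stood at 52.1, 4.80 and 5.06 CPM in libraries labelled shIft88 and at 13.7, 12.1 and 10.1 CPM in controls. For Nr4a1 and Maff, as for Dusp1, shIft88 1 was far above all others and the controls overlapped with the remaining libraries labelled shIft88 or lay above them. Egr2 and Nr4a3 were highest in control 2, each at 1.76 CPM there. Library shIft88 1 was highest for 12 of the 26 genes (46.2%) and control 2 for 5 (19.2%), against 17.9% and 11.2% of all genes tested.

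**Figure D4:**
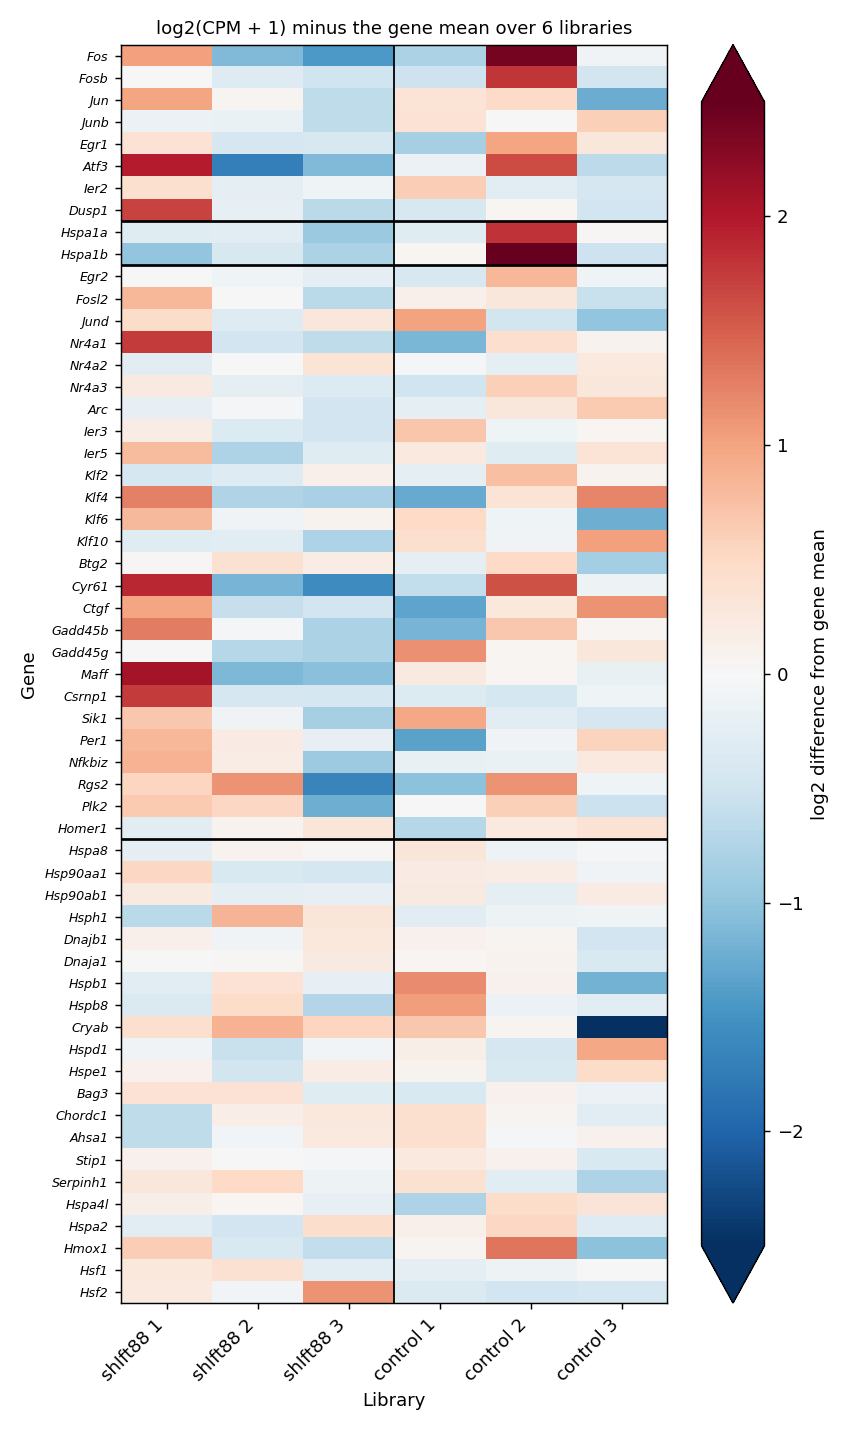
Difference of log2(CPM + 1) in each library (columns, shIft88 left of the line, controls right) from the gene's mean over 6 libraries, for the 8 immediate early members, the heat shock pair, 26 other immediate early genes and 21 other heat shock genes (rows); red is above the mean, blue below, and colours saturate at the ends of the bar. Fos, Atf3 and Cyr61 are red in shIft88 1 and control 2, the heat shock pair is red in control 2 alone, and most other heat shock genes stay pale.

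None of the other heat shock and chaperone genes that were tested passed the test between the groups. Of 21 that passed the filter from a list of 22, 0 were called by edgeR in either direction, 1 reached an unadjusted p of 0.05, 8 were above 0 and 13 below, and the median log2 fold change was -0.10. The groups did not overlap for 1, which was higher with shIft88 (background 4.7% of all genes tested). That gene was Hsf2, a heat shock factor active in development, at 30.5, 24.4 and 57.0 CPM in libraries labelled shIft88 1, 2 and 3 and at 19.9, 18.1 and 18.9 CPM in control 1, 2 and 3. The fold change of Hsf2 on the log2 scale was 0.97 (standard error 0.35, unadjusted p = 0.0248 and adjusted p = 0.9995 by edgeR's quasi-likelihood test). The mitochondrial chaperonin Hspd1 followed by smallest p, at 311, 224 and 314 CPM with shIft88 and 365, 243 and 643 CPM in controls. Hspa8, the constitutive partner of Hspa1a in the cytosol, stood at 1159, 1459 and 1395 CPM with shIft88 and 1697, 1258 and 1325 CPM in controls, and Hsp90ab1 at 1746, 1273 and 1305 CPM with shIft88 and 1758, 1288 and 1726 CPM in controls. The highest library was 1.46 times the lowest for Hspa8 and 1.38 times for Hsp90ab1 (2.17 and 2.74 times with library totals alone), and the median over the 21 genes was 2.09, against 2.49 over all genes tested. Library control 2 was highest for 3 of the 21 (14.3%), Hspa4l, Hspa2 and Hmox1. That is near its share of 11.2% over all genes tested. Hmox1, the haem oxygenase, stood at 21.7, 10.3 and 8.56 CPM in libraries labelled shIft88 1, 2 and 3 and at 14.5, 36.0 and 6.25 CPM in control 1, 2 and 3. Hspa1l, the testis-expressed neighbour of the pair, did not pass the filter.

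None of the kinases and transcription factors listed as acting on immediate early genes passed the test between the groups. Of 18 genes, 0 were called by edgeR in either direction, 1 reached an unadjusted p of 0.05, and the median log2 fold change was -0.084. The highest library was over 5 times the lowest for 0 of the 18. Srf, the serum response factor itself, stood at 25.9, 22.9 and 21.3 CPM in libraries labelled shIft88 and at 38.4, 34.3 and 38.0 CPM in controls. Every library labelled shIft88 thus lay below every control for Srf, for a log2 fold change of -0.66 (standard error 0.21, unadjusted p = 0.0169 and adjusted p = 0.9995 by edgeR's quasi-likelihood test). Mapk3, a kinase of the ERK pathway, was the 1 gene of the 18 that was higher with shIft88 without overlap, against 4.7% of all genes tested. It stood at 49.9, 62.9 and 48.0 CPM in libraries labelled shIft88 and at 47.7, 42.2 and 33.7 CPM in controls, for a log2 fold change of 0.38 (standard error 0.24, edgeR adjusted p = 0.9995). With library totals alone the Mapk3 groups overlapped, at 52.2, 68.7 and 28.7 CPM with shIft88 and 50.9, 46.5 and 41.7 CPM in controls.

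Among 12 feedback inhibitors of these pathways, 0 were called by edgeR, 0 reached an unadjusted p of 0.05, and the median log2 fold change was 0.054, with 7 genes above 0 and 5 below. The groups did not overlap for 1 of 12, Zfp36, an mRNA decay factor, which was higher with shIft88 at 3.73 to 4.44 CPM, against 3.39 to 3.58 CPM in controls (4.7% of all genes tested were higher without overlap). With library totals alone the Zfp36 groups overlapped, at 2.31 to 4.84 CPM with shIft88 and 3.62 to 4.43 CPM in controls. Dusp6, the phosphatase that acts on ERK, was highest in shIft88 1 as Dusp1 was, at 140.1, 27.6 and 72.5 CPM in libraries labelled shIft88 1, 2 and 3 and at 50.6, 61.4 and 24.5 CPM in control 1, 2 and 3. Dusp5, the nuclear ERK phosphatase, was low throughout, at 3.23, 1.48 and 0.812 CPM with shIft88 and 1.42, 5.33 and 5.46 CPM in controls. Spred1 and Spred2, membrane inhibitors of Ras signalling, had log2 fold changes of -0.086 and -0.51, with standard errors of 0.26 and 0.27. None of these 4 differed beyond the spread between libraries.

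The genes whose pattern over the 6 libraries was most like the mean of the 8 immediate early members were, by Pearson's r of log2(CPM + 1) among 14733 genes, Zfp414, Ggt7, Lix1l, Apoa1bp, Rnf220, Cyr61, Cables1 and Ctsk, with r from 0.972 to 0.997. Lix1l stood at 179, 85.9 and 82.0 CPM in libraries labelled shIft88 1, 2 and 3 and at 113, 197 and 89.1 CPM in control 1, 2 and 3. Zfp414 ranked first with levels between 4.25 and 4.94 CPM, so a high r here can go with a very small range. Most like the heat shock pair were Rap2b, Gm6793, Ralgps1 and Bcl9, with r from 0.963 to 0.996. Rap2b, a small GTPase, stood at 13.5, 14.7 and 12.5 CPM in libraries labelled shIft88 and at 15.2, 38.9 and 14.3 CPM in controls, with control 2 alone on top. These names depended on the setting: with library totals alone, 3 of the 8 and 0 of the 4 were found again.

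Bulk tumour RNA mixes cell types, and fewer cells of a type cannot be told apart from less RNA per cell. The 10 mature neuron markers summed to 224, 174 and 19.9 CPM in libraries labelled shIft88 1, 2 and 3 and to 58.2, 177 and 544 CPM in control 1, 2 and 3. Neuron markers were thus highest in control 3 and lowest in shIft88 3, where Syn1 was at 0, while Gabra6 was at 0 in control 1. Blood genes, 7 in all, summed to 15.5, 75.4 and 17.2 CPM with shIft88 and to 20.3, 117 and 94.5 CPM in controls. Control 2 was the highest in blood genes and shIft88 1 the lowest. For 10 microglia and macrophage genes the sums were 227, 164 and 86.7 CPM with shIft88 and 167, 157 and 196 CPM in controls, with shIft88 1 on top. Of these sums, Tmem119 alone gave 64.0 CPM in shIft88 3 and 91.4 CPM in control 1. The highest library was 1.71 times the lowest for Tmem119, against a median of 7.32 times over the 10 genes. Vessel genes, also 10, summed to 357, 350.0 and 350.5 CPM with shIft88 and 432, 449 and 161 CPM in controls. Among them Acta2 ranged over 20.3 times and Des over 18.3 times, against a median of 3.52 times over the 10 genes. Astrocyte genes summed to between 360 and 916 CPM with shIft88 and between 335 and 862 CPM in controls. Of the lowest sum on each side, Gja1 alone gave 274 CPM in shIft88 3 and 259 CPM in control 1. The highest library was 872 times the lowest for Aqp4 and 477 times for Gfap, but 3.87 times for Gja1 and 2.42 times for Aldh1l1. The median of this ratio over the 8 astrocyte genes was 12.8. Oligodendrocyte genes summed to between 23.4 and 101 CPM with shIft88, with Olig1 at 0 in shIft88 3, and between 21.7 and 255 CPM in controls. With the mean of the neuron list as a covariate, the median log2 fold change of the members was -0.43, and 0 were called by edgeR. The part of the other cell types, and of tissue handling, in the members' levels was not tested.

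**Figure D5:**
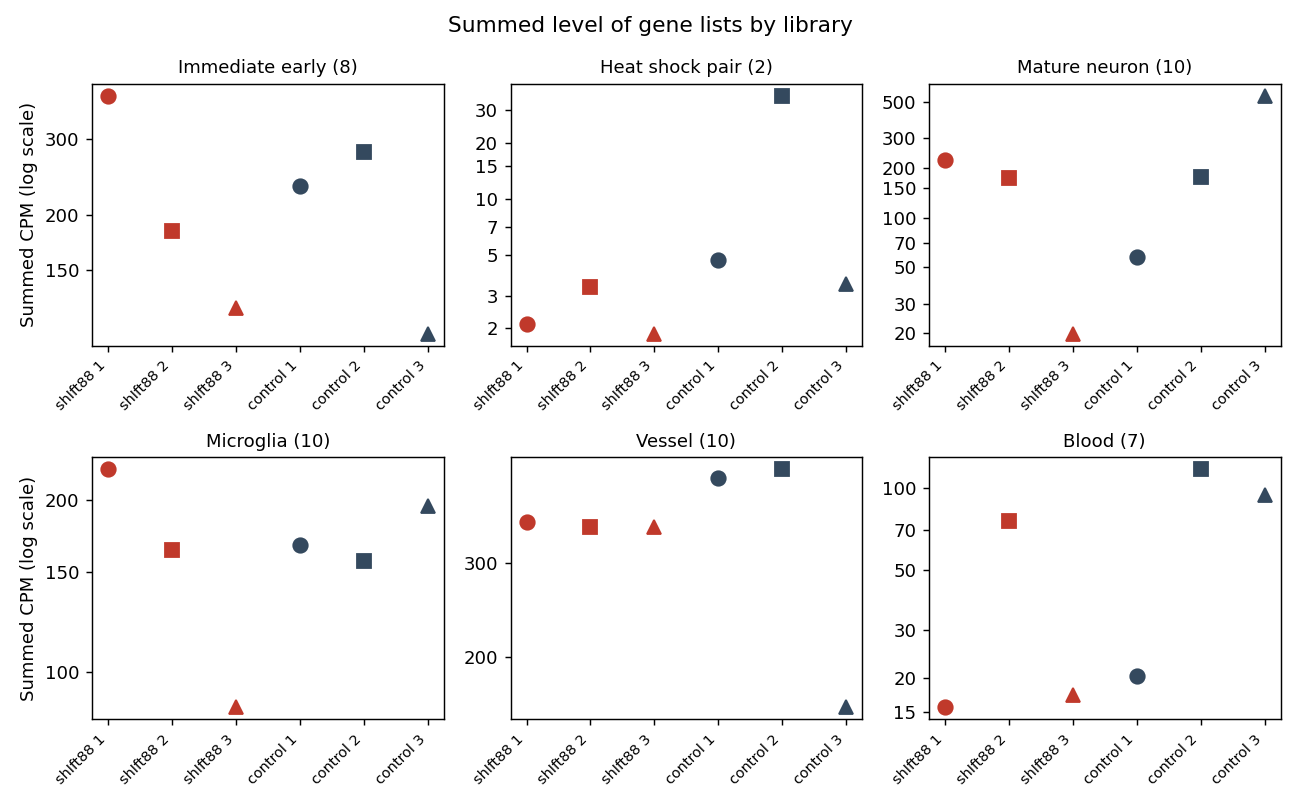
Summed CPM (log axis) of the 8 immediate early members, the heat shock pair and 4 lists of cell type markers in each library, libraries labelled shIft88 (red) left of controls (blue). The heat shock pair peaks in control 2 at 36.0 CPM, the neuron markers in control 3 at 544 CPM, and the blood genes in control 2 at 117 CPM.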

How the data were processed

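The RNA-seq libraries came from a kit that keeps strand (TruSeq Stranded Total RNA), per the labels' protocols. The submitters' processing notes name BWA and mm9; the sources used here do not give the counting program, annotation or strand setting. What was deposited is raw counts per gene, 1 table per library, with no normalization by the authors, per the values in the files. The 5 tallies at the end of each table entered neither library sizes nor tests. Reads with no feature made up 18.8% to 39.5% of all tallied reads. The libraries were grouped by their descriptions, and replicate numbers follow accession order and pair nothing.

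The test was that of edgeR 4.0.16 under R 4.3.3 (filterByExpr, TMM, glmQLFit with robust=TRUE, glmQLFTest, two-sided), 3 libraries labelled shIft88 against 3 controls, with Benjamini-Hochberg adjustment over 16768 genes at 0.05. Levels are CPM on TMM-scaled library sizes, and a positive log2 fold change is higher in shIft88. The code of the test was run on simulated counts, where recovery was required only with the spread capped at a low value. Its power at the spread of these data is not reported here. Exon lengths came from GENCODE M21, and promoter windows, matched for 8 of 10 members (not Egr1 and Ier2), from RefSeq, both on GRCm38, while the counts are on mm9.

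Members and lists were chosen with earlier results of these data known. Genes named were Ift88, the members, from each further list those called or, where there were none, the 2 of smallest p and the 2 most abundant, and the 8 and 4 most alike in pattern; any other gene is named as one of a small count, or was picked once its values were known. Some genes that this rule names are not reported here. Alternatives were DESeq2 1.42.0 and its size factors, library totals, limma-voom (limma 3.58.1), robust=FALSE, other filters, left-out libraries, splits and a term for olfactory receptor reads, a neuron covariate and the summed Hspa1 pair.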

Additional observations from a re-analysis of the deposited data

How the results depend on the processing

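No member was called under any of the settings tried. At the least, Hspa1b reached an adjusted p of 0.305 with DESeq2, which gave no p for Fosb. The number of genes called was 0 with edgeR, 6 without a filter (0 members) and 58 with DESeq2, and it was 0 with every library left out in turn. The median log2 fold change of the members ran from -1.59 to 0.27 with libraries left out, and was -2.67 and 0.92 within libraries with more and with at most 100 detected olfactory receptor genes. In that split control 2 and shIft88 1, already the highest for most members, are each alone in their group, so its signs are no check of stability. Library totals alone moved the median of all genes to -0.33 and that of the members to -0.89, and leaving out the filter moved that of all genes to 0.12. With at least 1 CPM required in 3 libraries, Fosb and Hspa1a were not tested and the median was -0.27. Of the 8 genes most like the immediate early members, 3 were found again with library totals alone and 2 with Spearman's rho. Of the 4 most like the heat shock pair, 0 were found again with either, and 1 with a pseudocount of 0.1. No paired analysis was possible because the labels give no replicate numbers.

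With libraries left out in turn, signs turned for Fos (-3.55 to 0.46), Fosb (-2.25 to 0.70), Jun (-0.29 to 0.54), Egr1 (-0.99 to 0.084), Atf3 (-2.71 to 1.22), Ier2 (-0.24 to 0.41), Dusp1 (-0.20 to 1.37), Ift88 (-0.16 to 0.13), Plk2 (-0.22 to 0.47), Hspa8 (-0.18 to 0.048) and Spred1 (-0.22 to 0.075). Within libraries rich in olfactory receptor reads they turned for Jun (-0.74), Atf3 (-3.81), Dusp1 (-0.53), Plk2 (-0.73), Hspd1 (0.13), Hspa8 (0.17), Spred1 (0.20) and Dusp6 (-0.31), and within the rest for Fos (1.74), Fosb (1.25), Egr1 (0.62) and Ift88 (0.061). With a term for such reads Atf3 was -0.53, Hsp90ab1 0.0023 and Spred1 0.0057. Ier2 was -0.016 with DESeq2 size factors, -0.27 with library totals, -0.037 without a filter, -0.015 with DESeq2 and -0.0066 with the neuron covariate. Atf3 was -0.12 with library totals, -0.70 with limma-voom and -0.15 with the covariate, and Plk2 -0.052 with library totals and -0.066 with limma-voom. Junb, Hspa1a and Hspa1b kept their sign in every setting. The cause of these turns was not tested. Fos, Fosb, Egr1, Hspa1a and Hspa1b rest on fewer than 100 reads in 3 or more libraries, which limits their precision.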
